A study of Mus musculus with 70 samples.

Results

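Growth cone and microtubule regulators were followed after axotomy, in which the axon is cut away from its cell body, in the dorsal root ganglia (DRGs) of mice. These ganglia flank the spinal cord and hold the cell bodies of sensory neurons. The 10 genes were Gap43, Basp1, Marcks, Marcksl1, Stmn2, Stmn4, Tubb3, Tubb6, Chl1 and Sprr1a. They were chosen by symbol, and every probe that the array's annotation pairs with one of these symbols was taken. This gave 17 of the 25697 probes of the array, and 16 of them were among the 17616 probes that were above background on enough arrays to be kept. All 10 genes were among the 11815 genes tested.

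The groups were axotomized and naive (uninjured) ganglia of 9 mouse strains, labelled WSB, CAST, 129, AJ, C3H, C57, DBA, NZO and NOD. CAST is the CAST/Ei strain that the series title names, and AX5D, the label of the axotomized samples, was taken to mean 5 days after the cut. Each sample was the pooled total RNA of 6 DRGs from 3 mice and was hybridised to 1 Illumina array, which gave 35 AX5D and 35 NAIVE arrays in 18 groups, 16 of 4 arrays and 2 of 3, both of AJ. The labels call the replicates biologically distinct, and the sex and age of the mice and the site of the cut are not given in the sources used here. No transgene, drug or deletion is named for any group.

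A growth cone is the motile tip of a growing axon, where membrane is added, actin filaments push the edge forward and microtubules extend behind it. Gap43, Basp1, Marcks and Marcksl1 encode acidic, membrane-bound proteins that bind calmodulin or the lipid PIP2, are regulated by protein kinase C and act on the actin beneath the membrane. Stmn2 and Stmn4 encode stathmins, which bind tubulin dimers and make microtubules more dynamic, and Tubb3 and Tubb6 encode beta-tubulins, the subunits of the microtubules themselves. Chl1 encodes a cell adhesion molecule of the L1 family that sits on axons. Sprr1a encodes a small proline-rich protein known from the cornified envelope of skin, and in rodent sensory neurons it is a marker of axotomy that promotes axon outgrowth. Gap43 and Sprr1a are commonly used to mark injured or regenerating sensory axons.

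RefSeq gives a window around the transcription start for 5 of the 10 genes, from 250 bases before to 50 bases after the start, on build GRCm38.p6. The windows of 3 genes are shown, because Sprr1a had the highest response of the 10, Chl1 had the widest range of strain means and Tubb3 was the only gene whose AX5D and NAIVE arrays overlapped in every strain. Each is printed 5′ to 3′ on the strand of its gene, and capitals mark motif matches. The Sprr1a window lies at chr3:92485832-92486131 on the minus strand, the Chl1 window at chr6:103510626-103510925 on the plus strand and the Tubb3 window at chr8:123411303-123411602 on the plus strand. The Chl1 gene begins at 103510584 in RefSeq, so its whole window lies inside the gene, around a start downstream of the gene's first base.
Sprr1a: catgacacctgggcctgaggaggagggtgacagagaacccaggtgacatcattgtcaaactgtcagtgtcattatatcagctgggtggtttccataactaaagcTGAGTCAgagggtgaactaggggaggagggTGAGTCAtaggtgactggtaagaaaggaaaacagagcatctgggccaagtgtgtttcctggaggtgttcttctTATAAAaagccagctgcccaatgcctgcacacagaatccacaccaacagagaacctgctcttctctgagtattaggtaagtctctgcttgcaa
Chl1: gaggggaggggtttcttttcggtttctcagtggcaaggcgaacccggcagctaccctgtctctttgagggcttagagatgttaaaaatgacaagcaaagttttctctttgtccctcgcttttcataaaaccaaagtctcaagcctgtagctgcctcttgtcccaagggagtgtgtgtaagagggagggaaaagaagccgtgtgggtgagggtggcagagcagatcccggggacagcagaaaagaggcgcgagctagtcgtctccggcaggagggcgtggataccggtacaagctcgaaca
Tubb3: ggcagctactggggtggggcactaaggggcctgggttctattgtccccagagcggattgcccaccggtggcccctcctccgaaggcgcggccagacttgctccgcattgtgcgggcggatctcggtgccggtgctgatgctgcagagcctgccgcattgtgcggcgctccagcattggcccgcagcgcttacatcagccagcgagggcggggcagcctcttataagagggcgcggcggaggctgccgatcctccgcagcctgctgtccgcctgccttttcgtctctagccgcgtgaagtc

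The 4 motifs searched on both strands were AP-1 (TGANTCA), the binding motif of Jun and Fos proteins, CRE (TGACGTCA), STAT (TTCNNNGAA) and a TATA box (TATAAA). Of 32851 windows of 300 bases, 7.81% held the AP-1 motif, 1.79% CRE, 8.3% STAT and 13.6% the TATA box. Sprr1a's window held 2 AP-1 matches, at −146 to −140 and at −116 to −110 from the start, and a TATA box at −43 to −38, with no overlap among them. These letters are in the window and say nothing about a factor bound there. None of the 4 motifs was found in the windows of Chl1, Tubb3, Basp1 and Marcksl1, which says only that these letters are not in these windows.

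Levels below are log2 values of background-corrected, quantile-normalized intensities. A response is AX5D minus NAIVE on that scale, with its standard error (SE), and the mean response weights the 9 strains equally. A gene was called where the adjusted p of limma's moderated test was below 0.05 after Benjamini-Hochberg adjustment over all 11815 genes. Because whole ganglia were measured, fewer cells of a type and less RNA per cell cannot be told apart.

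All 10 genes were higher in AX5D than in NAIVE ganglia as a mean over the strains. The background was high, since 28.1% of all genes tested were called higher and 61.7% were called in either direction. The median response of the 10 genes was 1.36, against −0.03 over all genes. The responses ran up to 5.76 for Sprr1a. The lowest value, 0.14, was that of Stmn2, whose probe was read at the top of the scale. Of the 90 tests of a gene in a strain, 77 were called, all of them higher in AX5D ganglia, where the same background was 13.8%. In all 9 strains 7 genes were called higher (Gap43, Marcks, Marcksl1, Stmn4, Tubb6, Chl1 and Sprr1a), against a background of 4.60%.

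**Figure D1:**
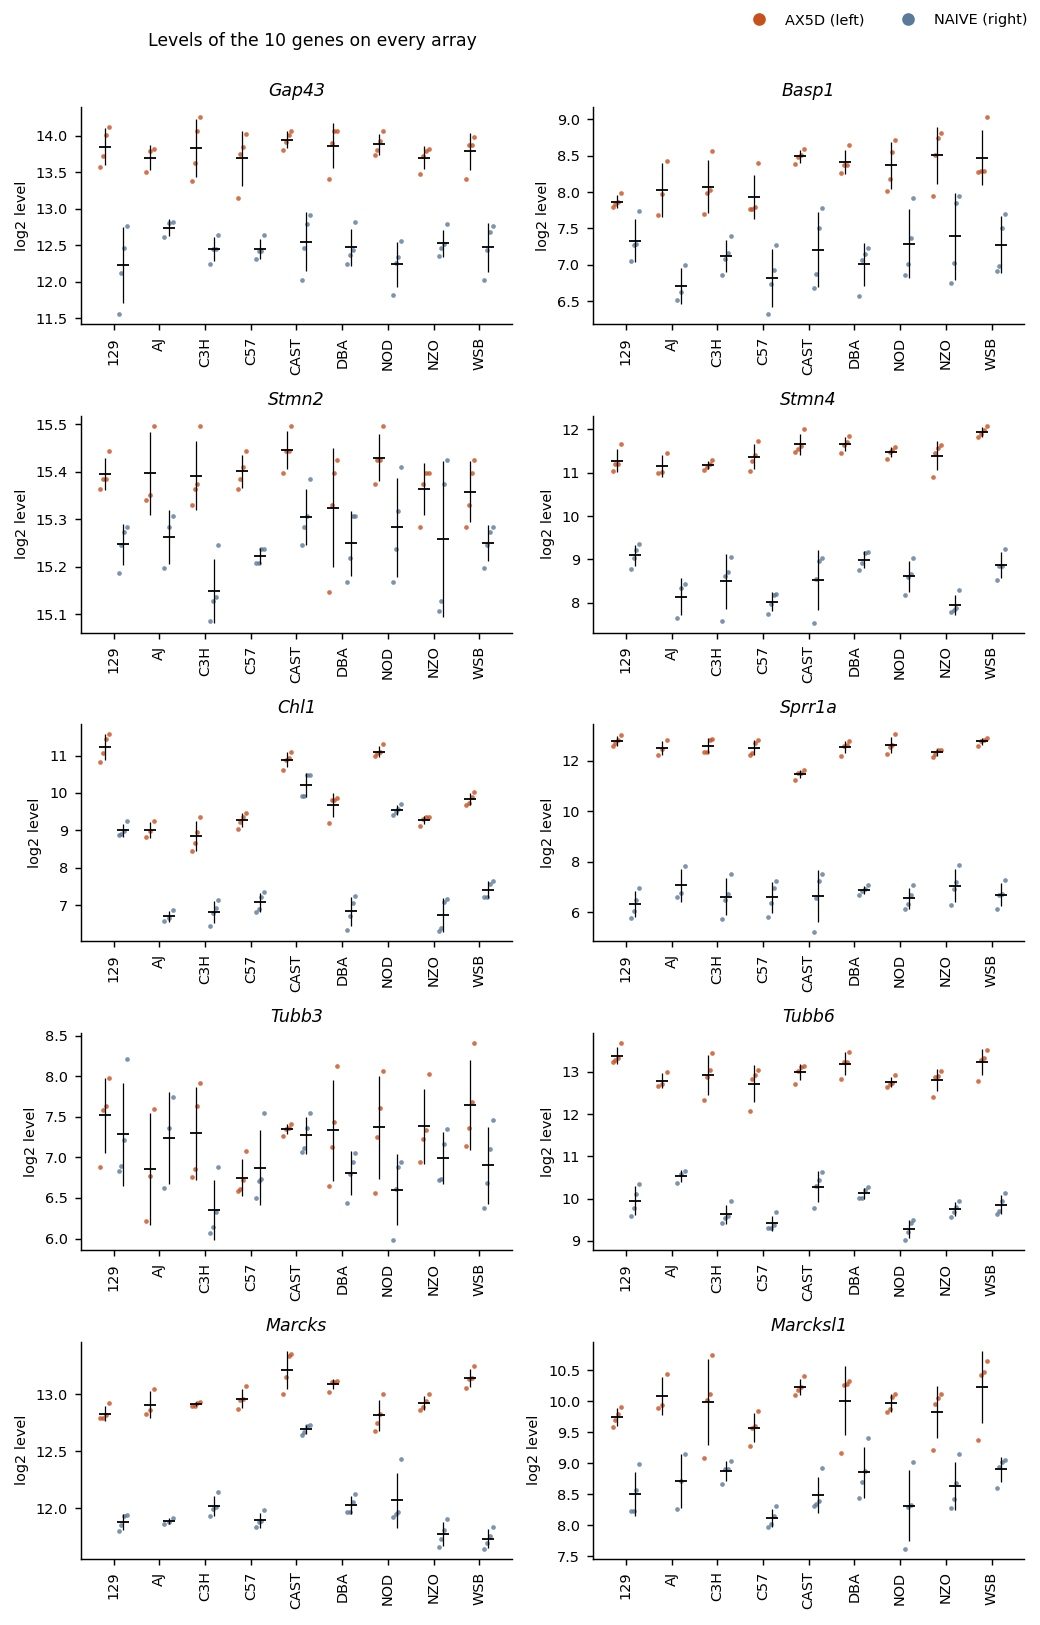
Log2 level of each of the 10 genes (vertical axis) on every array, by strain (horizontal axis), with AX5D arrays on the left of each pair and NAIVE arrays on the right; points are arrays in order of value, the black dash is the group mean and the vertical line the SD of 3 or 4 arrays. The AX5D points stand above the NAIVE points in every strain for Gap43, Basp1, Stmn4, Chl1, Sprr1a, Tubb6 and Marcks, and overlap them in every strain for Tubb3. The share of all genes separated in every strain was not counted, and each panel has its own vertical scale.

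Gap43, the growth-associated protein of axon tips, had log2 levels of 13.14 at the lowest, 13.81 at the median and 14.26 at the highest of the AX5D arrays, against 11.55, 12.45 and 12.92 on the NAIVE arrays. Every AX5D array of any strain was above every NAIVE array. Over all genes, 2.12% had AX5D and NAIVE arrays that did not overlap, and Gap43, Stmn4, Sprr1a and Tubb6 were the 4 genes of the 10 that did so. The share of all genes whose treatments did not overlap within single strains, given for some genes below, was not counted. Gap43's mean response was 1.35 (SE 0.06, 2.55-fold, limma adjusted p = 2.97e-28). By strain the response lay between 0.96 in AJ and 1.64 in NOD and was called in 9 of 9 strains. An F-test of a difference in response among the strains gave an adjusted p of 0.578, one among NAIVE levels 0.37 and one among AX5D levels 0.906. The strain means of Gap43 spanned only 13.69 to 13.95 in AX5D ganglia, against 12.22 to 12.74 in NAIVE ganglia, and each strain's arrays overlapped those of the next strain in order.

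Basp1, which encodes another calmodulin-binding protein of the growth cone membrane, had levels of 7.69, 8.28 and 9.03 (lowest, median and highest) on the AX5D arrays, against 6.32, 7.06 and 7.95 on the NAIVE arrays. The arrays overlapped across strains but not within any of the 9. The NAIVE arrays were dim, with intensities of 266 to 492, so the size of the response depends on the background correction. Before correction the median intensities were 564 on AX5D and 375 on NAIVE arrays. Basp1 rose by 1.11 on average (SE 0.08, 2.16-fold, limma adjusted p = 7.01e-19). It was called in 8 strains and reached 1.41 in DBA. In 129 the AX5D mean was 7.87 ± 0.09, against 7.33 ± 0.29 in NAIVE (SD, n = 4 each), and this difference of 0.54 was not called in the fit of all genes (limma adjusted p = 0.0875). It was called when only the arrays of 129 were fitted (limma adjusted p = 0.0441) and without 129 NAIVE replicate 2 (limma adjusted p = 0.045). No difference in response among strains was called (adjusted p = 0.615), nor in NAIVE level (0.161) or AX5D level (0.059). The last of these was called with the log2 values of the authors' deposited table (0.00702) and with any of 10 single arrays left out (adjusted p from 0.0244 in limma's F-test). It was also called (0.0204) without the 8 arrays of run 4, the fourth run of neighbouring columns of the deposited table, an alternative chosen after seeing the data.

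Marcks, the main protein kinase C substrate of this family, cross-links actin at the membrane and is also abundant in macrophages. Its levels were 12.68, 12.95 and 13.35 on the AX5D arrays (lowest, median and highest), against 11.64, 11.93 and 12.73 on the NAIVE arrays. The 4 highest NAIVE values were those of CAST, and apart from them the treatments did not overlap. The mean response of 0.98 had the second smallest SE of the 10 genes (0.03, 1.98-fold, limma adjusted p = 1.52e-42). It was called in 9 of 9 strains and differed among them (adjusted p = 5.09e-08 in limma's F-test). Across all genes, 16.2% had a response that differed among strains, and among the 10 genes Marcks, Chl1, Stmn4 and Tubb6 did.

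CAST stood apart for Marcks in the naive state. The CAST NAIVE arrays read 12.64, 12.72, 12.67 and 12.73, against 11.64 to 12.43 on the NAIVE arrays of the other strains. All 4 lay above every other NAIVE array, and the next strain was NOD at 12.07. The CAST NAIVE level was 0.78 above the mean of the other 8 strains (SE 0.06, limma adjusted p = 2.94e-19). In CAST AX5D ganglia the values were 13.00, 13.15, 13.34 and 13.35, which overlapped those of other strains, and the difference from the other 8 was 0.26 (limma adjusted p = 6.69e-05). The response of CAST, 0.52, was also 0.52 below that of the other 8 strains (log2 difference −0.52, limma adjusted p = 1.04e-06). For comparison, 45.1% of all genes differed in CAST in the naive level and 8.02% in the response.

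WSB lay at the other end for Marcks. Its AX5D arrays read 13.15, 13.13, 13.25 and 13.06, and its NAIVE arrays 11.69, 11.83, 11.64 and 11.75. The WSB response of 1.42 was 0.49 above that of the other 8 strains (SE 0.08, limma adjusted p = 1.2e-05). WSB was 0.30 lower in the naive state (limma adjusted p = 2.01e-05) and 0.19 higher after axotomy (limma adjusted p = 0.00664, or 0.0705 without WSB AX5D replicate 3 and 0.0746 without the arrays of run 4). NZO was 0.25 lower in the naive state (limma adjusted p = 0.000465). After axotomy NOD and 129 were lower than the other strains by 0.18 and 0.17, and median scaling of the arrays in place of quantile normalization ended both calls (adjusted p = 0.0664 and 0.258). They were also lost without NOD AX5D replicate 3 or 4 (0.0843 and 0.149) and without 129 AX5D replicate 1, 3 or 4 (0.0608, 0.0723 and 0.0743).

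Marcksl1, a smaller relative of Marcks also described in macrophages, had levels of 9.08, 10.01 and 10.74 on the AX5D arrays, against 7.62, 8.60 and 9.40 on the NAIVE arrays. The 2 treatments did not overlap in 8 of the 9 strains, and DBA was the exception. In DBA the lowest AX5D array read 9.17, against 9.40 on the highest NAIVE array. That AX5D array, replicate 2, was of run 4, and the 5 AX5D arrays of run 4 had the 5 lowest Marcksl1 levels of all 35 AX5D arrays, at 9.08 to 9.38 against 9.56 or more on the rest. Without the arrays of run 4 the treatments overlapped in 0 strains and the mean response was 1.45 (limma adjusted p = 1.53e-27). Marcksl1 rose by 1.36 on average (SE 0.09, 2.57-fold, limma adjusted p = 6.3e-22), and the strains ranged from 1.11 in C3H to 1.74 in CAST. No difference in response among strains was called for this probe (adjusted p = 0.809). The C57 NAIVE level was 0.55 lower than that of the other strains (limma adjusted p = 0.0357), a call that was lost with the authors' matrix (0.0948), with median scaling (0.0537) and without C57 NAIVE replicate 1, 3 or 4 (0.117, 0.129 and 0.0778).

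The other 3 kept probes of Marcksl1 had mean responses of 1.33, 0.99 and 0.92. The last of them was above background on 27 AX5D arrays and 1 NAIVE array, so that its NAIVE level has only a bound in every strain but 1. Among strains, the responses of the first 2 differed in the fit of all probes (limma F-test adjusted p = 0.0197 and 0.00154), and 14.3% of all probes did. Their highest responses were both in WSB, at 1.82 and 1.84, while the probe used for the gene gave 1.33 in WSB. In 129 they gave 0.64 and 0.25, against 1.24 on the probe used for the gene. Both 129 responses were below those of the other strains (limma adjusted p = 0.0312 and 0.0275). The second of them was not called as a response (limma adjusted p = 0.435). Probes of a gene share its transcripts and are not replicates, and which of them reads the strain difference was not tested.

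Stmn4, the stathmin also named RB3, had the largest response of the microtubule genes after Tubb6. Its AX5D arrays read 10.90 at the lowest, 11.47 at the median and 12.09 at the highest, against 7.54, 8.62 and 9.35 for the NAIVE arrays. The gap between the treatments was 1.56. On average Stmn4 rose by 2.93 (SE 0.07, 7.64-fold, limma adjusted p = 6.98e-43), which ranked 42 from the top among 11815 genes, and it was called in 9 of 9 strains. A second probe of the gene also gave 2.93 (SE 0.07).

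The response of Stmn4 differed among strains (limma F-test adjusted p = 0.0361). The strain with the smallest response was 129, at 2.18, with AX5D values of 11.03, 11.20, 11.21 and 11.67 and NAIVE values of 9.35, 9.03, 9.22 and 8.79. The strain with the largest was NZO, at 3.44, with AX5D values of 11.63, 11.56, 11.45 and 10.90 and NAIVE values of 8.30, 7.78, 7.84 and 7.88. The 2 strains overlapped after axotomy and not in the naive state. Against the other 8 strains, NAIVE levels were higher in 129 by 0.64 and in DBA by 0.53, and lower by 0.64 in NZO and 0.56 in C57 (limma adjusted p = 0.00242, 0.0179, 0.00238 and 0.0101). The C57 call was lost without C57 NAIVE replicate 4 (0.0892), and the DBA call without DBA NAIVE replicate 2 or 3 (0.0913 and 0.101).

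The response of 129 was 0.85 below that of the other 8 strains (log2 difference −0.85, SE 0.23, limma adjusted p = 0.025). This call was lost when 129 AX5D replicate 1, 2 or 3 or 129 NAIVE replicate 1 or 3 was left out (adjusted p up to 0.108). On the second probe neither the response nor the NAIVE level of 129 was called against the other 8 strains. The log2 differences were −0.53 and 0.42 (limma adjusted p = 0.208 and 0.0707 in the fit of all probes). The F-test itself was lost without any of 14 single arrays of 129, C57 and NZO (up to 0.0873), without 129, C57, DBA or NZO as a strain (0.408, 0.0698, 0.0557 and 0.106), and in the second probe (0.0891). Without the arrays of run 4 it gave 0.0977, and the difference of 129 from the other 8 strains was −0.81 (limma adjusted p = 0.0704). AX5D levels differed among strains (adjusted p = 0.0226), with WSB 0.55 above the other strains (limma adjusted p = 0.00743). Without WSB that F-test gave 0.284, and without WSB AX5D replicate 3 or 4 it gave 0.0646 and 0.0526, and without the arrays of run 4 0.0822.

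Stmn2, the stathmin SCG10 that is needed for axon outgrowth and repair, was read at the top of the scale. Its intensity ranked between 1 and 36 among all probes of an array and was 61.0% to 100% of the brightest value on it, with a median of 89.9%. The AX5D arrays read 15.15, 15.40 and 15.50 (lowest, median and highest), against 15.09, 15.24 and 15.42 on the NAIVE arrays. The mean response was 0.14 (SE 0.02, 1.10-fold, limma adjusted p = 9.69e-10) and it was called in 129, C3H, C57, CAST and NOD. Under median scaling the calls in these strains were lost, the CAST value turned to −0.078, and WSB was called at 0.35 (adjusted p = 0.0451). How much the upper end of the scale holds down this response was not tested.

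Tubb6, a beta-tubulin found in many cell types, had the second highest response of the 10. The AX5D arrays read 12.08, 13.00 and 13.69 (lowest, median and highest), against 9.01, 9.77 and 10.64 on the NAIVE arrays. The gap between the lowest AX5D and the highest NAIVE array was 1.44. The mean response was 3.11 (SE 0.06, 8.63-fold, limma adjusted p = 4.58e-49), rank 34 of 11815 genes, and it was called in 9 of 9 strains. The response differed among strains (limma F-test adjusted p = 0.00608), from 2.26 in AJ to 3.47 in NOD.

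AJ had the smallest Tubb6 response. Its AX5D arrays read 12.66, 12.72 and 13.00, against 10.64, 10.57 and 10.38 on its NAIVE arrays. The AX5D values lay among those of other strains, and the lowest AJ NAIVE value was above the NAIVE means of all other strains. The NAIVE level of AJ was 0.74 above the other strains (limma adjusted p = 0.000203), and its response was 0.95 below theirs (log2 difference −0.95, SE 0.22, limma adjusted p = 0.00742). With AJ left out, the F-test of the response gave 0.261. With 3 AJ arrays in each treatment, leaving out AX5D replicate 2 or 3 or NAIVE replicate 1 ended the call of the AJ response against the other strains (0.0601, 0.052 and 0.0557). CAST was 0.47 higher in the naive state (limma adjusted p = 0.00319, or 0.0557 without CAST NAIVE replicate 3), and C57 and NOD were lower by 0.51 and 0.66 (limma adjusted p = 0.00357 and 0.000134). After axotomy 129 was 0.46 higher than the others (limma adjusted p = 0.00703, or 0.0834 without 129 AX5D replicate 2), and the F-test of AX5D levels (0.00452) gave 0.0519 without 129.

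Tubb3, the neuronal beta-tubulin, changed least clearly. Its AX5D arrays read 6.21, 7.33 and 8.41 (lowest, median and highest), against 5.98, 6.89 and 8.21 on the NAIVE arrays. AX5D and NAIVE arrays overlapped in all 9 strains. Averaged over strains the response was 0.35 (SE 0.11, 1.28-fold, limma adjusted p = 0.00362), and the strain values ran from −0.38 in AJ to 0.94 in C3H, above 0 in 7 strains. The C3H value was the only one called (limma adjusted p = 0.0197), and leaving out any of 4 C3H arrays ended it (AX5D replicate 1 or 4, 0.0675 and 0.114, and NAIVE replicate 2 or 4, 0.0656 and 0.0561). The single probe was dim, with intensities of 273 to 582, and its SD within groups was 0.47.

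**Figure D2:**
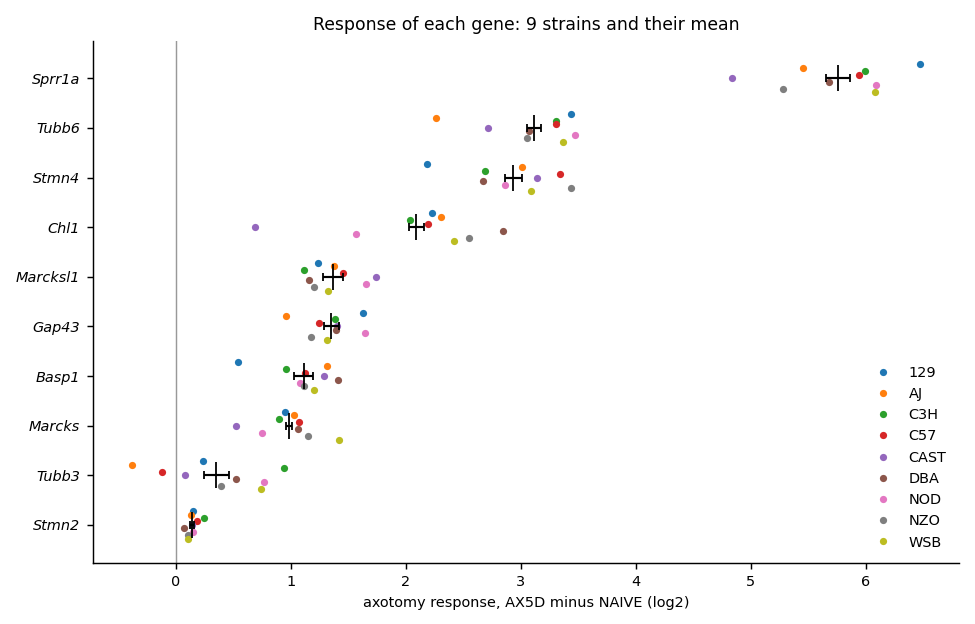
Axotomy response, AX5D minus NAIVE on the log2 scale (horizontal axis), for each of the 10 genes (rows, in order of the mean); coloured points are the 9 strains, the black tick is the mean over strains and the black bar its SE. All means are above 0, from 0.14 for Stmn2, read at the top of the scale, to 5.76 for Sprr1a, and CAST stands below the other strains for Chl1, Sprr1a and Marcks, AJ for Tubb6 and 129 for Stmn4.

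Chl1 had the widest range of strain means of the 10 genes, 2.38 on the log2 scale in AX5D ganglia and 3.50 in NAIVE ganglia. Over all strains the AX5D arrays read 8.45, 9.73 and 11.57 (lowest, median and highest), against 6.32, 7.22 and 10.49 on the NAIVE arrays. The ranges overlapped widely across strains, yet in each strain every AX5D array was above every NAIVE array. The mean response was 2.09 (SE 0.06, 4.26-fold, limma adjusted p = 1.31e-38) and was called in 9 of 9 strains. It differed among strains (adjusted p = 5.12e-08), as did the NAIVE level (4.76e-31) and the AX5D level (3.39e-22), each in limma's F-test. Over all genes 59.4% had NAIVE levels and 63.7% had AX5D levels that differed among strains.

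In naive ganglia 3 strains stood high for Chl1. CAST averaged 10.21 ± 0.32, NOD 9.55 ± 0.13 and 129 9.01 ± 0.17 (SD, n = 4 each), and none of the 3 overlapped the next. A gap of 1.59 separated 129 from WSB, at 7.41 ± 0.23 (SD, n = 4), and the remaining 5 strains lay between 6.70 and 7.07, each overlapping its neighbour. Against the mean of the other 8 strains, CAST was higher by 2.69, NOD by 1.95 and 129 by 1.34 (limma adjusted p = 8.86e-26, 3e-18 and 8.52e-12). The other 6 strains were all called lower, each against a mean that held the 3 high strains. This includes WSB, whose mean was above those of the remaining 5 strains. WSB was lower by 0.45 (limma adjusted p = 0.0118), a call that was lost without its NAIVE replicate 2 or 3 (0.0809 and 0.0749).

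In axotomized ganglia the same 3 strains were highest, in another order. 129 averaged 11.23, NOD 11.11 and CAST 10.89, and their arrays overlapped. A gap of 1.06 separated them from WSB at 9.83, and the others lay between 8.85 in C3H and 9.67 in DBA. The CAST AX5D arrays read 10.63, 10.94, 11.10 and 10.89, against 10.48, 9.93, 10.49 and 9.92 on the CAST NAIVE arrays. The CAST treatments lay closer together than those of any other strain, and the response of 0.68 (limma adjusted p = 0.00273) was 1.58 below that of the other 8 strains (log2 difference −1.58, SE 0.20, limma adjusted p = 6.53e-09). Outside 129, NOD and CAST the NAIVE arrays were dim. Their geometric mean intensities before correction were 327 in NZO to 404 in WSB, against 1114 in CAST. The sizes of the responses, and how far they differ among strains, therefore depend on the background correction.

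A high naive level of Chl1 did not go with a small response in 129. The 129 AX5D arrays read 11.06, 11.57, 10.83 and 11.45, against 8.90, 9.00, 8.88 and 9.25 on the 129 NAIVE arrays. On the probe used for the gene, its response of 2.22 differed from that of the other 8 strains by 0.15 (SE 0.20, limma adjusted p = 0.774). NOD had AX5D values of 11.08, 10.99, 11.06 and 11.30 and NAIVE values of 9.71, 9.41, 9.49 and 9.57. Its response of 1.56 was second lowest after CAST but was not called different from the other strains (log2 difference −0.59, limma adjusted p = 0.163). The highest response was 2.84 in DBA, 0.85 above the others (limma adjusted p = 0.00596). With the authors' matrix, which has no background correction, this difference was 0.34 (adjusted p = 0.125), and without DBA NAIVE replicate 2, the lowest array of that group, the adjusted p was 0.0637.

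A second probe of Chl1, above background on 26 AX5D and 10 NAIVE arrays, had a mean response of 0.59 (SE 0.09, limma adjusted p = 8.34e-08). Among NAIVE arrays it was above background on 4 of 4 in CAST, 2 of 4 in NOD, 1 of 4 each in 129, C3H, NZO and WSB and 0 in AJ, C57 and DBA, so that the order of the strains other than CAST cannot be read on it. Among AX5D arrays it was above background on 4 of 4 in 129 and NOD, 3 in AJ, C3H, DBA and WSB, and 2 of 4 in C57, CAST and NZO. In CAST the NAIVE level exceeded that of the other 8 strains (limma adjusted p = 0.000172), which lay mostly near background. The responses on this second probe differed among strains (limma F-test adjusted p = 0.0236). In 129 the response was 1.14 and the AX5D level 1.05 above those of the other 8 strains (limma adjusted p = 0.0114 and 4.2e-05). Another Chl1 probe was above background on 15 AX5D and 0 NAIVE arrays, so its NAIVE level has only a bound. Its AX5D arrays were above background in AJ, C3H, C57, DBA, NOD, NZO and WSB and in none of 129 and CAST. Unlike on the second probe, the 129 AX5D level was 0.76 below that of the other 8 strains (limma adjusted p = 0.000135). The last probe of Chl1, the one of the 17 that was not kept, was above background on 0 arrays. The files give no probe sequences, so whether strain variants lie under a probe, or whether the probes read different transcripts, was not tested.

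**Figure D3:**
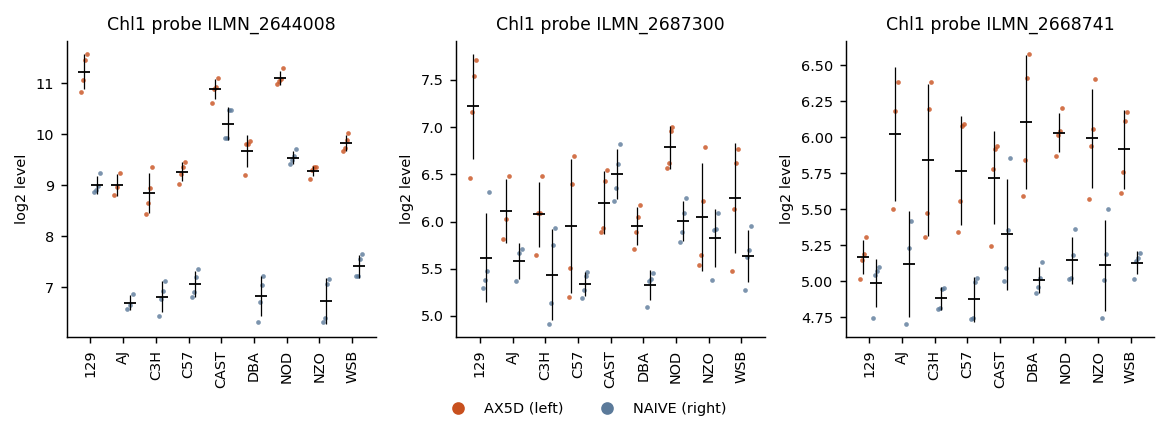
Log2 level of the 3 kept Chl1 probes (1 panel each, vertical axis) on every array by strain (horizontal axis), AX5D arrays left and NAIVE arrays right; points are arrays in order of value, dashes are means and lines the SD of 3 or 4 arrays. On the probe used for the gene (left panel) CAST, NOD and 129 stand high in both treatments; on the second probe (middle panel) CAST is the only NAIVE group with all arrays above background, and on the probe of the right panel no NAIVE array and no array of 129 or CAST was above background. The panels have different vertical scales.

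Sprr1a had the fourth highest response of all 11815 genes. The AX5D arrays read 11.25, 12.59 and 13.06 (lowest, median and highest), against 5.23, 6.71 and 7.86 on the NAIVE arrays. Even the closest AX5D and NAIVE arrays differed by 3.39. Sprr1a was above background on all 35 AX5D arrays and on 31 of 35 NAIVE arrays, the other 4 being 1 array each of 129, C3H, C57 and CAST. The mean response was 5.76 (SE 0.11, 54.1-fold, limma adjusted p = 1.36e-50), and it ran from 4.84 in CAST to 6.47 in 129. The NAIVE arrays were dim, with intensities of 255 to 524, so the size of the response depends on the background correction. Before correction the geometric mean intensities were 6843 (AX5D) and 312 (NAIVE) in 129, and 3334 and 299 in CAST.

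After axotomy CAST was the lowest strain for Sprr1a. Its AX5D arrays read 11.51, 11.66, 11.52 and 11.25, against 12.17 to 13.06 on the AX5D arrays of the other strains. None of the CAST arrays overlapped them, and the next strain, NZO, averaged 12.33. The CAST AX5D level was 1.11 below that of the other 8 strains (log2 difference −1.11, SE 0.24, limma adjusted p = 6.17e-05). AX5D levels differed among strains with CAST in the fit (limma F-test adjusted p = 0.00822) and not without it (0.849), nor without CAST AX5D replicate 4 (0.0596).

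In naive ganglia the CAST arrays read 6.57, 7.52, 7.25 and 5.23, within the range of the other strains except for the last. No difference among NAIVE levels was called (limma F-test adjusted p = 0.418). The CAST response was 1.03 below that of the other strains (log2 difference −1.03, SE 0.33, limma adjusted p = 0.0392). That call was lost with array weights (−0.82, adjusted p = 0.139), without the arrays of run 4 (−0.82, adjusted p = 0.167) and without CAST AX5D replicate 1, 3 or 4 (0.0656, 0.0689 and 0.102) or CAST NAIVE replicate 1, 2 or 3 (0.0574, 0.226 and 0.15). The F-test of the response gave 0.098, against 9.84e-06 with the authors' matrix, which has no background correction, and it was called without C3H NAIVE replicate 1 (0.0485), CAST NAIVE replicate 4 (0.00353) or NZO NAIVE replicate 4 (0.0487).

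No strain was highest or lowest for all genes. The median response over the 10 genes ran from 1.19 in NZO to 1.60 in NOD. CAST had the smallest response for Chl1, Sprr1a and Marcks and the largest for Marcksl1. 129 had the smallest for Basp1 and Stmn4 and the largest for Sprr1a. These are orders by value. No difference in response among strains was called for Marcksl1, Basp1 or Sprr1a (limma F-test adjusted p = 0.809, 0.615 and 0.098). The Marcksl1 probes with a called difference among strains were highest in WSB. Against the other 8 strains, 7 of 90 gene-by-strain responses were called, 5 of them lower and 2 higher, where 3.12% of such tests over all genes were called. For NAIVE levels 21 of 90 were called (background 20.9%), and for AX5D levels 14 of 90 (background 23.8%). The members' shares of differing levels were therefore close to or below those of all genes. NAIVE levels differed among strains by F-test for 4 of the 10 genes (Chl1, Marcks, Tubb6 and Stmn4), and AX5D levels for 5 (the same 4 and Sprr1a). Over all genes these shares were 59.4% and 63.7%.

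Other genes of the same machinery were read in 6 lists, whose members, like the 10 genes, were chosen with earlier results known, and no test sets the lists against the 10 genes. Of 14 measured tubulin isotypes 5 were called higher and 7 lower, with a median response of −0.06, where 28.1% of all genes were higher and 33.6% lower. The named 3 of this list, by smallest adjusted p, were gamma-tubulin Tubg2 (−0.56), the neuronal beta-tubulin Tubb2b (0.31) and the alpha-tubulin Tuba4a (−0.63). Under median scaling 3 isotypes were called higher. Tuba1a, Tuba1b, Tubb2b and Tubb5 were, like Stmn2, read near the top of the scale, with median intensities of 80.4%, 95.1%, 88.8% and 87.5% of the brightest value on an array. Their responses (0.16, −0.11, 0.31 and 0.10), and with them the median of the list, have the same limit. Of 36 microtubule-associated and microtubule-regulating genes 13 were higher and 10 lower, with a median of 0.03. Among them were Crmp1, a collapsin response mediator (0.90), Ckap5, which adds tubulin to microtubule ends (−0.56), and Map6, which stabilizes microtubules (0.53). All 16 kept probes of the 10 genes were called higher in the fit of all probes, where 26.4% of probes were. Of these, 1 probe of Chl1 and 1 of Marcksl1 had passed the filter only or almost only through AX5D arrays (15 AX5D and 0 NAIVE, and 27 AX5D and 1 NAIVE), so that only a higher value was open to them. With probes kept at 35 arrays above background, 14 were tested and called.

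Of 29 growth cone actin regulators 17 were called higher and 6 lower, with a median of 0.12. The actin-bundling gene Fscn1 rose by 1.87, Cttn (cortactin) by 0.96 and Limk2, a kinase of cofilin, by 0.58. Of 16 L1 family and other axonal adhesion genes 6 were higher and 7 lower, with a median of −0.14. The laminin receptor subunit Itga7 rose by 2.16, whereas Cntn4 fell by 0.95 and Cadm1 fell by 0.47. L1cam, the family's namesake, had a response of −0.11 (limma adjusted p = 0.332).

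Partners of the membrane proteins were mostly lower in AX5D ganglia. Of 15 calmodulin, protein kinase C, phosphoinositide kinase and related genes 2 were higher and 12 lower, with a median of −0.27. Gnao1, the G protein that GAP43 acts on, fell by 0.65, Prkca by 0.86 and Prkcd by 0.52. Of the small proline-rich and cornified envelope genes 7 were kept, and 9 more were not above background on enough arrays. Sprr1b was above background on 35 AX5D and 0 NAIVE arrays, Sprr2f on 8 and 0, Sprr2g on 7 and 0, and Tgm1 on 3 and 0. These 4 passed the filter only through AX5D arrays, so that only a higher value was open to them, their NAIVE levels have only bounds, and no count of calls is given for the list. Of the other 3, Lor had a response of 0.23 (limma adjusted p = 0.00117), Sprr2a1 of 0.07 (0.573) and Ppl of −0.05 (0.596). Genes of this family resemble each other in sequence, and whether a probe reads more than 1 of them was not tested.

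**Figure D4:**
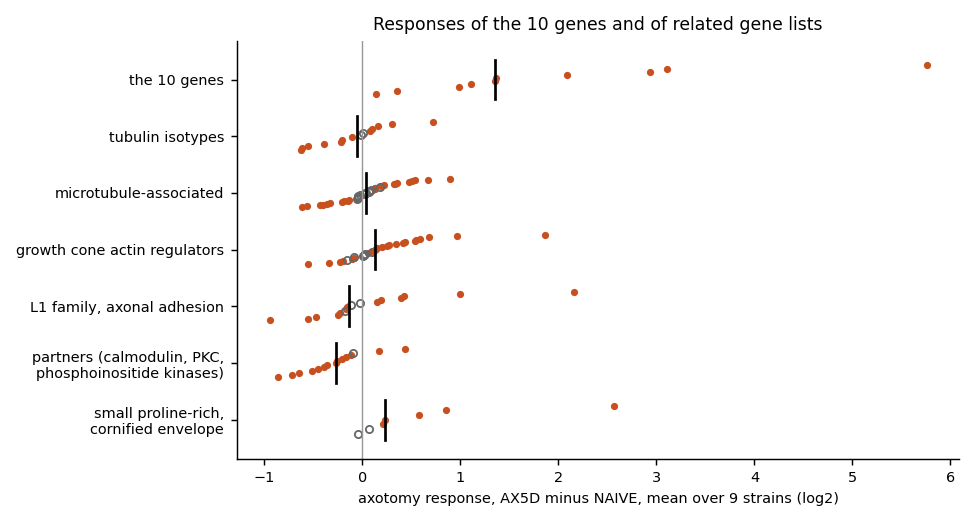
Mean axotomy response, AX5D minus NAIVE on the log2 scale (horizontal axis), of each of the 10 genes (top row) and of each gene in 6 lists of related genes (rows below); filled points were called at an adjusted p below 0.05, open points were not, and black bars are list medians. The 10 genes have a median of 1.36, against −0.27 to 0.23 in the 6 lists; 4 of the 7 small proline-rich and cornified envelope genes were above background on AX5D arrays only.

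Markers of other cells moved with treatment beside these genes. Sensory neuron markers marked the tissue, with 12 of 13 on the array above background (Snap25 was not) and mean levels of 12.15 to 12.61 on AX5D arrays, against 12.46 to 13.02 on NAIVE arrays. Of the 12, 10 were called lower and 1 higher, with a median response of −0.41. All 9 measured macrophage markers were higher, with a median of 2.28 and mean levels of 8.99 to 10.67 on AX5D arrays, against 6.94 to 8.25 on NAIVE arrays (Itgam was not above background). All 6 neutrophil, all 6 fibroblast and all 4 dividing cell markers were also called higher, with medians of 0.93, 0.57 and 0.84. Keratinocyte markers, of interest beside Sprr1a, were called higher for 2 of 5, and Krt5 and Sfn were not above background. Satellite glia markers were higher for 1 of 5 and lower for 1, myelinating Schwann cell markers higher for 2 of 5 and lower for 1, and skeletal muscle markers called for 0 of 6.

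By strain, the median response of the macrophage markers was 3.04 in WSB, 2.91 in CAST and 2.88 in 129 at the high end and 1.42 in NZO at the low end. For Marcks, which macrophages also express, WSB had the highest response (1.42) and CAST the lowest (0.52). For Marcksl1, CAST had the highest value (1.74) on the probe used for the gene, where no difference among strains was called. The Marcksl1 probes with a called difference were highest in WSB. The part of these cells in the responses of Marcks and Marcksl1 was not tested.

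The responses were also read within 9 runs of 8 neighbouring columns of the deposited table, since arrays of a run resembled one another (correlation 0.143 in limma's block estimate). Within runs the AX5D minus NAIVE difference was above 0 in 9 of 9 runs for every gene except Chl1, at 8 of 9. It lay between 1.27 and 1.57 for Gap43, 2.63 and 3.32 for Stmn4, 2.79 and 3.70 for Tubb6, 5.25 and 6.62 for Sprr1a and 0.70 and 1.28 for Marcks. For Chl1 it lay between −0.25 and 3.36, and runs held different strains. The lowest Chl1 value was that of run 4, whose 3 NAIVE arrays were of CAST, NOD and 129, the strains with the highest naive Chl1 levels. Its 5 AX5D arrays were of C3H, C57, DBA, NZO and WSB, so the treatments of this run shared no strain. For Marcksl1 the difference within run 4 was 1.17, with means of 9.22 on 5 AX5D and 8.06 on 3 NAIVE arrays, the lowest of the 9 runs in both treatments. The 5 AX5D arrays of run 4 were also the 5 lowest AX5D arrays for Gap43, at 13.14 to 13.48. Without run 4 the mean responses were 1.37 for Gap43, 1.09 for Basp1, 2.11 for Chl1 and 1.45 for Marcksl1, and all 10 genes were called higher. CAST minus the other strains in the same run, for Marcks NAIVE arrays, was 0.70 to 0.77 in 4 runs. For Sprr1a on AX5D arrays it was −1.20 to −0.97 in 4 runs, and for Chl1 on NAIVE arrays 0.78 to 3.19 in 4 runs.

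The genes whose pattern over the 18 group means was most like that of each of the 10 were found by Pearson's r, as a description over groups that share 2 treatments. Gap43 was most like Npy, Fcmr and Tubb6 (each r = 0.99). Tubb6 was most like Npy, Gap43 and Mapkbp1, Stmn4 most like Dtnbp1, Mmp16 and Speer1, and Sprr1a most like the serotonin transporter Slc6a4, Itga7 and Mmp16 (r = 0.99 each). Basp1 was nearest to Slc35e4, Mchr1 and Inhbb, Marcks to Mvp, Ppp4r1 and Cchcr1, and Marcksl1 to Rhoq, Ext2 and Fcmr. Chl1 was nearest to Psmd4 (r = 0.91), Mpp6 and Rnf4, Stmn2 to Ms4a6d, Rab35 and Speer6-ps1 and Tubb3 to Lrrfip1 (r = 0.77), Serpina3n and Dbn1. Among the 45 pairs of the 10 genes r ran from 0.52 for Tubb3 with Marcksl1 to 0.99 for Gap43 with Tubb6.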

How the data were processed

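The table deposited by the authors holds, for 72 arrays and 25697 probes, a linear intensity and a detection p-value, per the file headers. A second deposited table, of log2 values, differed by at most 0.027 from quantile-normalized log2 intensities that had no background correction. Which software made them is not stated. Columns of 2 AJ arrays were left out of every step, since no labelled sample goes with them; the series design names both as technical outliers. Intensities lay between 164 and 53947, with array medians of 253 to 392 and 13147 to 14721 probes above background per array. The number of arrays limits the precision.

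Here limma 3.58.1 (R 4.3.3) estimated background from the detection p-values, added an offset of 16 and quantile-normalized the intensities before log2 was taken. Background correction stretches differences of dim probes, and quantile normalization assumes 1 distribution for all arrays. Probes with a detection p below 0.05 on at least 3 arrays were kept, and the probe with the highest mean stood for its gene. Gene symbols came from the platform annotation, which gave 1 symbol for 23978 probes and none for 1719. No pair of arrays within a group had a correlation above 0.992 and none held identical values. limma fitted 1 mean for each of the 18 groups, with trended moderated variances (residual degrees of freedom 52, prior 8.60), 2-sided tests and Benjamini-Hochberg adjustment over all genes at a threshold of 0.05; F-tests had 8 degrees of freedom. A second fit used all kept probes. The fits were tested on simulated data.

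Named outside the 10 genes were, from each list, up to 3 genes with the smallest adjusted p of the mean response, and for each member the 3 genes with the highest correlation over group means; L1cam was chosen after its values were seen. The members, lists and runs of columns were chosen with earlier results of these data known. As alternatives, fits used the authors' log2 values, uncorrected background, scaling by the median, 2 other filters, another choice of probe, array weights, a replicate block, runs as a random block, arrays of a strain alone, and leaving out each strain or array; leaving out the fourth run was added after seeing the data. Replicates share numbers across groups, but same-numbered arrays did not deviate together (mean correlation of deviations 0.034 over 34 pairs, 11 of them over 0.1, against −0.012 over 103 other pairs), so the numbers were not used as pairs.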

Additional observations from a re-analysis of the deposited data

Results flagged for a closer look

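The axotomy response differed among the 9 strains for Marcks (limma F-test adjusted p = 5.09e-08), Chl1 (5.12e-08), Tubb6 (0.00608) and Stmn4 (0.0361). The Stmn4 value was 0.0977 without the arrays of run 4, described next. The strains that differed from the other 8 were CAST for Chl1 (log2 difference in response −1.58), Sprr1a (−1.03) and Marcks (−0.52), AJ for Tubb6 (−0.95), 129 for Stmn4 (−0.85), DBA for Chl1 (0.85) and WSB for Marcks (0.49). The sizes of the Chl1 values depend on the background correction. On the second Stmn4 probe the difference of 129 was −0.53 and was not called (limma adjusted p = 0.208).

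A single array stood apart in 7 of 160 groups of 4 arrays, by the gap to the nearest array over the group's range, where chance gives about 1 in 20. Of these 7 values 4 came from run 4 of the deposited table, 8 neighbouring columns, 2 from run 9 and 1 from run 3, so that several share a run. For Basp1 these were C57 AX5D replicate 4, at 8.39 against 7.77 to 7.79 on the other arrays of the group, and WSB AX5D replicate 3, at 9.03 against 8.28 to 8.30, both of run 4. For Marcksl1 they were DBA AX5D replicate 2 of run 4, at 9.17 against 10.26 to 10.33, and CAST NAIVE replicate 3 of run 9, at 8.92 against 8.31 to 8.40. The overlap of the Marcksl1 treatments in DBA rested on that DBA array. DBA AX5D replicate 2 was also low for Chl1, at 9.20 against 9.81 to 9.87. For Marcks, DBA AX5D replicate 3 (run 3) read 13.02 against 13.11 to 13.12, and NOD NAIVE replicate 4 (run 9) read 12.43 against 11.92 to 11.97. No label says what a run stands for, and its part in these values was not tested beyond leaving run 4 out.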

How the results depend on the processing

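No alternative that was run moved a count of calls over the 10 genes by more than 1.5 times. Leaving out each of the 70 arrays in turn gave 10 genes higher each time, 76 to 78 strain-level calls, 3 to 5 genes whose response differed among strains, 4 to 5 for NAIVE levels and 4 to 6 for AX5D levels, and 6 to 8, 19 to 23 and 13 to 15 calls of a strain against the others for responses, NAIVE levels and AX5D levels. All 16 kept probes were called each time, 2 of which were kept only or almost only through AX5D arrays, and 14 were tested and called at a filter of 35 arrays. With a replicate block the counts were 10, 78, 4, 4, 5, 7, 22, 14 and 16 in the same order, and Tubb3 in WSB was called (0.0477); no other call of a named value changed with it. With runs of columns as a random block (correlation 0.143) they were 10, 79, 4, 6, 6, 8, 25, 18 and 16, and without the arrays of run 4, chosen after seeing the data, 10, 77, 3, 5, 6, 6, 23, 19 and 16. Without run 4 the call of Stmn2 in NOD was also lost (0.215), Tubb3 was called in WSB (0.0243), and the Marcksl1 F-tests of NAIVE and AX5D levels were called (0.00504 and 0.00339). Signs turned for Stmn2 in CAST under median scaling (−0.078) and for Tubb3 in C57 without C57 NAIVE replicate 1 (0.10, adjusted p = 0.896), where leaving out single arrays gave −0.25 to 0.10; the cause was not tested. Stmn2 calls in 129, CAST and NOD were also lost with no filter (0.0558, 0.0724 and 0.0708) and without 129 AX5D replicate 2 or 4 or NAIVE replicate 2 or 4, CAST AX5D replicate 2, 3 or 4 or NAIVE replicate 1, 3 or 4, or NOD AX5D replicate 1, 3 or 4 or NAIVE replicate 2 or 3 (up to 0.199), and NZO was called without its NAIVE replicate 3 (0.0316). The Stmn4 F-test of the response was lost without 129 AX5D replicate 1, 2 or 3, 129 NAIVE replicate 1, 2 or 3, C57 AX5D replicate 1, C57 NAIVE replicate 4, NZO AX5D replicate 1, 2 or 3, or NZO NAIVE replicate 2, 3 or 4. The Marcksl1 NAIVE F-test (0.0642) was called without 129 NAIVE replicate 4, AJ NAIVE replicate 2, C3H AX5D replicate 1 or 2, CAST NAIVE replicate 3, DBA AX5D replicate 2, DBA NAIVE replicate 1, NOD NAIVE replicate 4 or WSB AX5D replicate 3 (from 0.0175) and with array weights (0.00725). The Basp1 AX5D F-test was called without AJ AX5D replicate 3, C3H AX5D replicate 2, C57 AX5D replicate 4, CAST NAIVE replicate 2 or 3, NOD AX5D or NAIVE replicate 2, NZO AX5D replicate 4 or NZO NAIVE replicate 3 or 4. Tubb3 was called in NOD without NOD AX5D replicate 1 (0.0166) and in WSB without WSB AX5D replicate 3, WSB NAIVE replicate 1 or 129 NAIVE replicate 4 (0.0314, 0.0271 and 0.0481). The probe of Tubb3 is dim and that of Stmn2 near the top of the scale, and what this does to their values was not tested. Filtering at 35 arrays left 2 small proline-rich list genes higher.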
